A study of Folsomia candida with 36 samples.

Results

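The 100 genes with the steadiest share of the sequenced RNA were described in the springtail Folsomia candida, a soil arthropod used in ecotoxicology. Counts of each library were divided by the library total and given as CPM, a share of the library on a fixed scale. Of 28734 gene models, 7628 had a mean of 20 CPM or more over 36 libraries, and they held 94.21% of all counts. The 100 genes were those with the lowest standard deviation (SD) of log2(CPM + 0.5) over the 36 libraries, which is 1.311% of the 7628 genes. They are called the constant genes here. Because their spread over all libraries chose them, their low spread and small changes are given as a description and support nothing.

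The libraries came from whole bodies of the wild-type Berlin Strain, kept in jars of the natural soil LUFA2.2 at 20 °C with 16 h of light and 8 h of dark. Control soil had been mixed with water alone, and exposed soil held imidacloprid at 0.25 mg per kg dry soil, the study's EC20 for reproduction, that is the concentration that lowers reproduction by 20%. Imidacloprid belongs to the neonicotinoids, insecticides that bind acetylcholine receptors of the nicotinic type on nerve cells. Animals were sampled at 12, 24, 36, 48, 60 and 72 h, with 3 libraries from pools of 70 animals for each treatment and time, so that 18 libraries were controls and 18 were exposed. The labels do not say that the pools of a group came from separate cultures, so p-values measure the spread between these libraries. Library totals ran from 20280135 to 42146055 estimated counts, with a median of 25542483. In whole-body libraries, fewer cells of a type and less RNA per cell cannot be told apart.

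Genes needed by most cells for translation, energy supply and upkeep are often called housekeeping genes, and steady members of that class are used as reference genes in quantitative PCR. A reference gene serves as a ruler: the level of a gene of interest is divided by that of the reference, so that differences in input or loading cancel. Sequencing counts give only shares of a library, so the choice of a scale decides what counts as constant. The deposited table does not pair its identifiers with gene names, and 0 of them were found in a RefSeq gene table of 27231 genes of the species, so the constant genes are given by identifier, without products, positions or sequences.

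The constant genes covered a wide span of read abundance. Their mean levels ran from 30.06 to 1033.6 CPM, with a median of 111.9 CPM and a middle range from 72.3 to 160.1 CPM. The median of all 7628 genes was 57.2 CPM and the most abundant gene had 36521 CPM. CPM was not divided by gene length, so these levels do not rank the genes by number of transcripts. Single library counts of the constant genes lay between 546 and 45416, with a median of 2872. Of 3345 genes between 20 and 50 CPM, 6 were constant genes, a share of 0.1794%. The share was 1.707% between 50 and 100 CPM with 38 constant genes and 2.977% between 100 and 200 CPM with 39. It was 2.674% between 200 and 500 CPM with 15 constant genes and 1.075% at 500 CPM or more, where 2 of 186 genes were chosen. The constant genes were thus not the most abundant genes, and 1 of them was among the 100 genes of highest mean CPM.

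The highest mean levels belonged to Fcan01_13511 with 1033.6 CPM, Fcan01_13326 with 573.2 CPM and Fcan01_02608 with 450.6 CPM. The lowest belonged to Fcan01_13214 with 30.06 CPM, Fcan01_09734 with 30.85 CPM and Fcan01_21403 with 32.99 CPM. Counting error weighed more on the low genes. Poisson counting alone would give an SD of 0.00883 on the log2 scale for Fcan01_13511 and 0.0518 for Fcan01_13214. As a share of the observed variance, counting made up 0.534% for the first and 20.5% for the second. Over the 100 genes its median share was 5.126%, and in 15 genes it exceeded 10%, so most of the remaining spread was not counting error.

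The SD of log2(CPM + 0.5) of the constant genes ran from 0.0774 to 0.131 with a median of 0.120, against a median of 0.332 over all 7628 genes, 2.77 times as large. In linear terms their coefficient of variation was 5.458% to 9.282% with a median of 8.362%, and the median of all 7628 genes was 23.06%. The highest library exceeded the lowest by a median of 1.415-fold in the constant genes, with extremes of 1.266-fold and 1.655-fold. The same ratio had a median of 2.61-fold over the 7628 genes. No gap separated the chosen genes from the next ones. The last 3 inside were Fcan01_19620, Fcan01_19708 and Fcan01_05906, with SDs of 0.1303, 0.13048 and 0.13078. The first 3 outside were Fcan01_02721, Fcan01_21104 and Fcan01_03911, with 0.13082, 0.13086 and 0.13113.

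**Figure D1:**
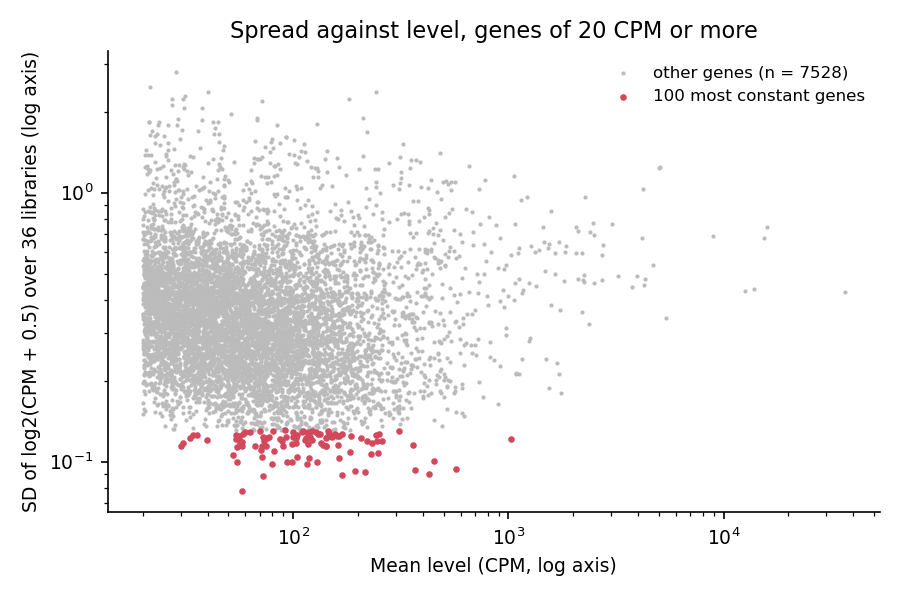
SD of log2(CPM + 0.5) over 36 libraries (vertical, log axis) against mean level in CPM (horizontal, log axis) for the genes of 20 CPM or more, each point a gene and the 100 constant genes coloured. The constant genes lie along the lower edge, from 30.06 to 1033.6 CPM, and join the other genes without a gap at an SD of 0.131.

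The most constant gene was Fcan01_12097, with a mean of 57.81 CPM, an SD of 0.0774 on the log2 scale and a coefficient of variation of 5.458%. Its 18 control libraries ran from 52.26 to 67.54 CPM with a median of 57.65, and its 18 exposed libraries from 52.2 to 61.34 CPM with a median of 58.77. The ranges of the treatments overlapped nearly in full, and the single highest value was a 12 h control. By group, the mean was 60.95 ± 5.71 CPM in controls at 12 h (SD, n = 3) and 57.08 ± 3.18 CPM at 72 h. In exposed animals it was 59.33 ± 1.04 CPM at 12 h and 54.28 ± 1.90 CPM at 72 h. The exposed libraries at 72 h, with 52.2, 54.72 and 55.93 CPM, formed the lowest group, and overlapped the controls of that time at 53.51, 58.11 and 59.61 CPM.

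Fcan01_06984 was second, with 60.68 to 80.19 CPM in controls (median 70.97) and 67.37 to 80.64 CPM in exposed animals (median 73.5). Fcan01_07913 had 146 to 196.5 CPM in controls (median 168.5) and 145.2 to 180.9 CPM after exposure (median 169). Fcan01_05856 had 338.6 to 472.7 CPM in controls (median 427.6) and 396.4 to 471.8 CPM after exposure (median 426.8). In each of the 3 genes the treatments shared most of their range. Fcan01_02217 followed with 192.6 to 254.9 CPM in controls (median 216.8) and 193.6 to 231.9 CPM after exposure (median 211.4). Fcan01_05802 had 174.5 to 224.9 CPM in controls (median 186) and 176.2 to 211 CPM after exposure (median 193.1). Fcan01_23506 had 331.9 to 412.3 CPM in controls (median 365.6) and 326.7 to 413.7 CPM after exposure (median 363.8). The treatment medians of these genes lay within the range of either treatment. The other 3 of the first 10 were Fcan01_13326, Fcan01_06959 and Fcan01_26289. Their SDs on the log2 scale were 0.0942, 0.0978 and 0.0979. Fcan01_13326 combined a low spread with a high count, at 504.7 to 683.5 CPM in controls (median 572) and 514.2 to 646.8 CPM after exposure (median 572.2).

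**Figure D2:**
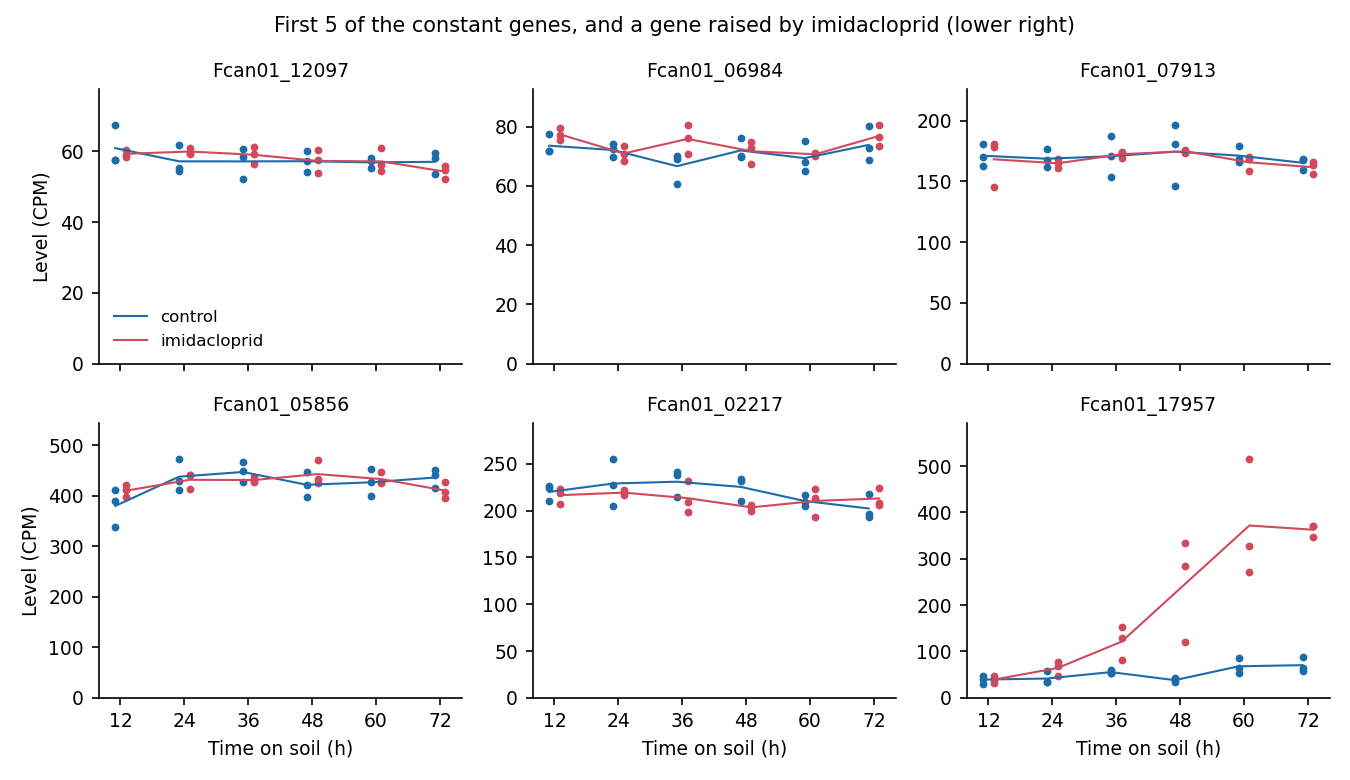
Level in CPM (vertical, from 0) against hours on soil (horizontal) for the first 5 constant genes and, in the lower right panel, Fcan01_17957, a gene higher after exposure. Points are libraries and lines join the group means of 3 libraries. The lines of the constant genes run nearly level and cross each other, while those of Fcan01_17957 part from 24 h onwards. At 24 h its single libraries still overlap.

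The 12 group means of a constant gene differed little. The highest exceeded the lowest by 1.071-fold to 1.282-fold with a median of 1.181-fold, against a median of 1.606-fold over the 7628 genes. The widest range of group means was that of Fcan01_08942 at 1.282-fold. Its exposed libraries at 12 h had 57.05, 64.43 and 69.57 CPM, and its controls at 48 h had 81.35, 81.62 and 81.64 CPM. All libraries of the second group lay above those of the first. At 48 h its exposed libraries, at 74.25, 75.82 and 76.53 CPM, were all below the controls, and at 60 h the exposed, at 79.19, 79.49 and 79.57 CPM, were all above the controls at 69.19, 73.35 and 78 CPM. By library totals the order of the treatments in this gene thus turned between consecutive times. In the edgeR fit described below, scaled by TMM, its log2 fold change was -0.022 at 48 h and 0.078 at 60 h. Each had a standard error of 0.107. The change of its treatment difference with time had an edgeR adjusted p of 0.858, so the turn was not called.

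Fcan01_19627, Fcan01_08133, Fcan01_03995 and Fcan01_13639 came next, with ranges of group means of 1.273-fold, 1.272-fold, 1.269-fold and 1.266-fold. In Fcan01_08942, Fcan01_19627, Fcan01_03995 and Fcan01_13639 the highest group was the controls at 48 h. The narrowest range was that of Fcan01_19631 at 1.071-fold, with group means between 101 and 108 CPM. Its libraries nevertheless spread from 91.1 to 125.4 CPM, both of them controls at 24 h. Fcan01_07913, Fcan01_12921, Fcan01_23506 and Fcan01_21403 had the next narrowest ranges, and for Fcan01_12921 and Fcan01_21403 these were 1.084-fold and 1.091-fold. A narrow range of group means therefore did not mean that single libraries were close.

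The spread within groups was the main part of what was left. Time accounted for a median of 22.36% of the variance of a constant gene with 14.29% of the degrees of freedom. Treatment accounted for 0.880% with 2.857% of the degrees of freedom, and the change of the treatment difference with time for 12.24% with 14.29%. Differences between libraries of a group accounted for 61.5% with 68.57%. The medians over all 7628 genes were 21.44%, 0.775%, 12.46% and 63.27%, so the small variance of the constant genes was divided in nearly the same proportions as that of other genes. Single constant genes departed from the median: time made up 64.73% of the variance of Fcan01_08942, and treatment made up 15.3% of that of Fcan01_08133. The median SD within groups was 0.1116 in the constant genes and 0.3133 in the 7628 genes.

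Changes with treatment were fitted with edgeR's quasi-likelihood test over 19600 genes that passed the filter on low counts, scaled by TMM (trimmed mean of M-values), with p-values adjusted by Benjamini and Hochberg over all of them. All 100 constant genes passed the filter. The rule had used the same libraries, so counts of calls among the constant genes are printed beside the background with nothing read from them. Over all time points 0 constant genes were called at an adjusted p under 0.05, and 0.306% of all genes tested were called. At an unadjusted p under 0.05 there was 1 constant gene, against 3.29% of all genes. DESeq2 called 1 constant gene there and 0.668% of all genes. limma-voom called 0 constant genes, and nothing is read from that 0, since its share of all genes is not given here.

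That gene was Fcan01_08133, which had the largest absolute change over all time points. Its 18 control libraries ran from 189 to 279.6 CPM with a median of 228.4, and its 18 exposed libraries from 174.5 to 232.3 CPM with a median of 213. The exposed libraries were lower at the median, and the ranges overlapped widely. The edgeR log2 fold change was -0.10 with a standard error of 0.037, or 1.073-fold lower after exposure, with an edgeR adjusted p of 0.818. DESeq2 gave -0.11 with an adjusted p of 0.00644. The highest control of Fcan01_08133 was a 12 h library, and at 36 h its group means were 215 ± 0.340 CPM in controls and 218.7 ± 7.29 CPM after exposure (SD, n = 3 each).

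Fcan01_13511, the constant gene with the highest mean CPM, came second. Its controls ran from 866.9 to 1247 CPM with a median of 1079 and its exposed libraries from 823.9 to 1121 CPM with a median of 1022, again overlapping widely. Its edgeR log2 fold change was -0.09 with a standard error of 0.052 and an edgeR adjusted p of 1.00. Fcan01_21555 had -0.08, while Fcan01_09739 and Fcan01_13857 had the largest positive values, 0.07 each. None of these 4 was called by edgeR or DESeq2.

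Over all time points the log2 fold changes of the 100 genes had a median of -0.0047 and ran from -0.10 to 0.07, with 43 above 0. The 7628 genes had a median of -0.020, with 2946 above 0. With library totals in place of TMM the median of the constant genes was 0.0038, so its sign depended on the scale. The absolute value had a median of 0.018 in the constant genes and 0.0511 in the 7628 genes. Their extreme was 1.073-fold, kept small by the choice of the genes. Of the 7628 genes 1632, or 21.395%, had a larger absolute change over all time points. The median standard error of the 7628 genes was 0.0981, close to that extreme of 0.10 on the log2 scale. Lying beyond the extreme therefore does not show that a gene changed. Of these 7628 genes 17 were called, and all of them lay beyond the extreme of the constant genes. An absolute change larger than that of every constant gene was thus far more common than a call.

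At single time points the median standard error rose from 0.0471 to about 0.115 in the constant genes and from 0.0981 to 0.240 in the 7628 genes. With edgeR 0 constant genes were called at each time, and the called share of all genes was 0% for each of 12, 24 and 36 h. At an unadjusted p under 0.05 edgeR had 649, 341 and 2032 genes at these times, and DESeq2 called 13, 21 and 55 and limma-voom 0. The edgeR share was 0.0357% at 48 h, and then 0.0204% after 60 h and 0.0255% after 72 h. Among the constant genes 7 had an unadjusted p under 0.05 at 48 h, against 14.4% of all genes. With library totals or with the constant genes as the scale 0 did. The shares of all genes under these scales are not given here, so nothing is read from that 0. With TMM there was 1 constant gene at each other time, against 1.74% (24 h) to 10.4% (36 h) of all genes, with 3.65% at 60 h and 4.07% at 72 h. At an adjusted p under 0.05 limma-voom and DESeq2 called 0 constant genes at each time, and nothing is read from this. The log2 fold changes of the constant genes ran from -0.25 to 0.17 at 12 h, from -0.27 to 0.19 at 24 h and from -0.25 to 0.18 at 36 h. They ran from -0.14 to 0.29 at 48 h, from -0.25 to 0.15 at 60 h and from -0.23 to 0.19 at 72 h. The share of the 7628 genes beyond the largest of these absolute values was lowest at 24 h, at 12.166%, and highest at 48 h, at 51.219%. Between these lay 12 h with 18.603%, 60 h with 24.567%, 72 h with 29.182% and 36 h with 47.26%. The largest absolute values were near the median standard error of the 7628 genes, 0.240, so these shares do not count genes that changed.

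**Figure D3:**
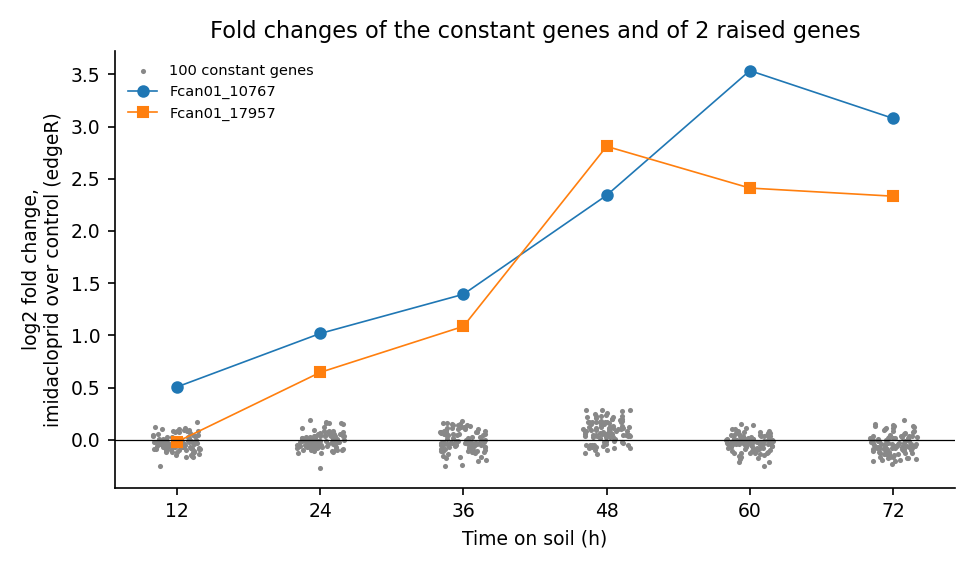
Log2 fold change of imidacloprid over control from edgeR with TMM scaling (vertical) against hours on soil (horizontal). Grey points are the 100 constant genes, jittered sideways, and lines are Fcan01_10767 and Fcan01_17957. The constant genes stay between -0.27 and 0.29, shifted upward at 48 h with TMM but not with library totals, while both lines exceed 2 from 48 h onwards.

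The values at 48 h stood apart, with 78 of 100 constant genes above 0 and a median of 0.084. Of the 7628 genes 3503 were above 0 at that time, with a median of -0.048, while the median over all genes tested was 0.113. The medians of the constant genes and of all genes tested depended on the scale. With library totals in place of TMM the median at 48 h was -0.0038 in the constant genes and 0.022 in all genes, and with DESeq2's size factors it was -0.037 and -0.013. The direction of the constant genes at 48 h therefore flipped with the scaling, and the size-factor scale moved the median of all genes by over 0.1 on the log2 scale. At 36 h the constant genes had a median of -0.029 with TMM and 0.024 with library totals. At 60 h these values were -0.027 and 0.0085, while at 12, 24 and 72 h both scales gave a negative median.

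Time was tested within each treatment, and 0 constant genes were called by edgeR in either. In controls 1.28% of all genes were called, and in exposed animals 1.06%. At an unadjusted p under 0.05 there were 9 constant genes in controls, against 19.6% of all genes, and 1 in exposed animals, against 15.2%. The 9 became 3 with library totals, and 1 without the filter on low counts or without control 12 h replicate 3. The shares of all genes under these settings are not given here, so nothing is read from the drop. Without that replicate the edgeR calls over all genes at an adjusted p under 0.05 also fell, from 250 to 72. limma-voom also called 0 constant genes in both, and nothing is read from that 0. DESeq2 called 6 constant genes in controls, where it called 8.58% of all genes, and 2 in exposed animals, where it called 5.84%. The 6 were Fcan01_08133, Fcan01_02461, Fcan01_08942, Fcan01_27594, Fcan01_19620 and Fcan01_27241, with DESeq2 adjusted p-values from 0.00395 to 0.0438. The 2 were Fcan01_07788 and Fcan01_05354, with DESeq2 adjusted p-values of 0.0472 and 0.04998. For the change of the treatment difference with time edgeR called 0 constant genes and 0% of all genes, with 0 constant genes and 1290 of all genes at an unadjusted p under 0.05. DESeq2 called 61 of all genes there, limma-voom called 0, and neither called a constant gene.

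The highest time means of the constant genes were spread over all 6 time points. Scaled by totals, the highest time mean fell at 12 h in 20 constant genes, at 24 h in 22 and at 36 h in 12. The later times held 21 at 48 h, then 11 and 14 at the last 2 times. Of the 7628 genes 11.52% were highest at 12 h, 22.4% at 24 h and 8.875% at 36 h. At 48, 60 and 72 h their shares were 30.07%, 8.482% and 18.64%. Lowest time means fell mostly at the ends, with 26 genes at 12 h and 34 at 72 h, where the 7628 genes had 20.57% and 44.42%. With TMM the picture at 12 h was the reverse: 31 constant genes were highest and 8 lowest there, and 30 were lowest at 24 h. The 7628 genes had 16.74% highest and 14.51% lowest at 12 h, and 11.42% lowest at 24 h. The time at which the constant genes peaked thus changed with the scale. The range of the 6 time means was stable, with a median of 0.156 on the log2 scale by totals and 0.157 by TMM, against 0.427 and 0.413 in the 7628 genes.

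Whether constancy carried over to libraries that did not choose the genes was read by choosing anew on 18 libraries and measuring in the other 18. Of the 7603 genes of 20 CPM or more in controls, the 100 steadiest there had a median SD of 0.115 in controls and 0.130 in the exposed libraries. The median of the 7603 genes in the exposed libraries was 0.352. All 100 lay below that median, 94 were in the lowest 10%, and the largest SD among them was 0.202. Of these 100 genes 69 belong to the constant genes. Chosen on exposed libraries and read in controls, the median SD went from 0.108 to 0.148, against 0.309 over the 7612 genes, with 78 in the lowest 10% and 56 belonging to the constant genes. In both directions the SD was higher in the libraries that had not been used for the choice.

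**Figure D4:**
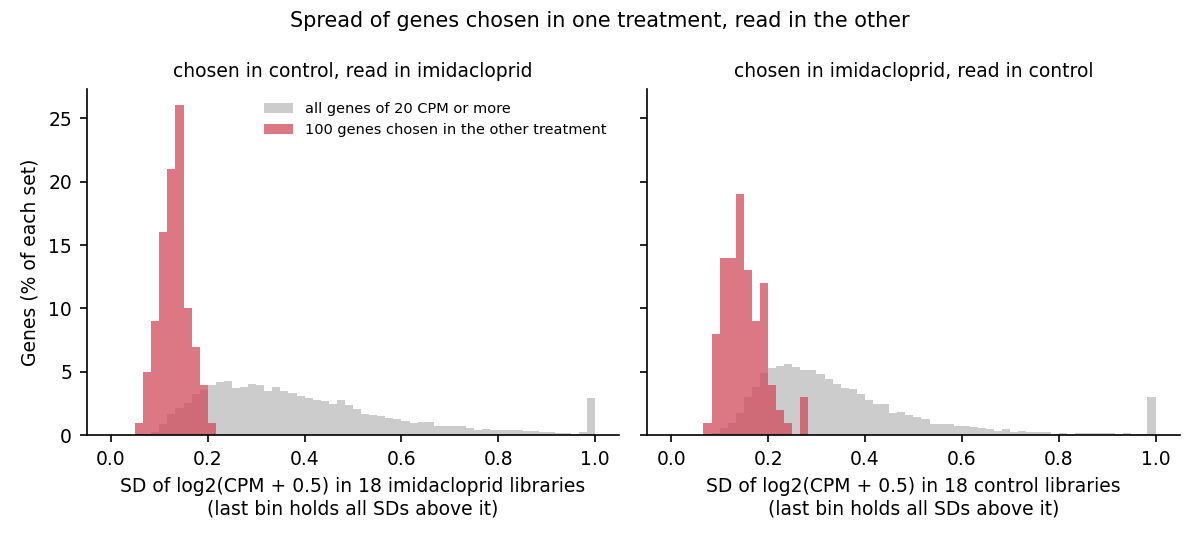
Distribution of the SD of log2(CPM + 0.5) in 18 libraries of one treatment (horizontal) as a percentage of genes (vertical). Grey bars are all genes of 20 CPM or more and coloured bars the 100 genes chosen in the other treatment; the last bin holds larger SDs. The chosen genes have a median SD of 0.130 when read in exposed libraries and 0.148 when read in controls, and all 100 lie below the grey median in both panels.

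The same was done across time, where each set holds other libraries of both treatments. Genes chosen at 12, 36 and 60 h had a median SD of 0.108 there and 0.139 at 24, 48 and 72 h, against 0.328 over the 7581 genes, with 86 in the lowest 10%. Genes chosen at 24, 48 and 72 h went from 0.109 to 0.141, against 0.336, with 85 in the lowest 10%. All 100 of each choice lay below the median of the genes they were compared with. The exact list was less stable than the property. Of each 100, 32 were chosen on both treatments and 29 on both sets of times, and 24 were chosen in all 4 sets of libraries. The 24 include all of the first 10 constant genes. Those 10 were ranked on the same 36 libraries that make up these sets, so this overlap largely follows from the rule and supports nothing.

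Some libraries held more of the extremes than others. Of the 100 genes, 13 had their highest value in control 12 h replicate 6, 13 in control 24 h replicate 3, 12 in imidacloprid 36 h replicate 6 and 10 in control 48 h replicate 6. The lowest values fell most often in control 48 h replicate 4, with 14, and in imidacloprid 72 h replicate 1, with 10. The median absolute deviation of the constant genes from their own means was between 0.0445 and 0.121 on the log2 scale per library, against 0.111 to 0.471 for the 7628 genes. The largest value for the constant genes was in control 12 h replicate 6, and the largest for the 7628 genes was in imidacloprid 60 h replicate 3. Choosing without control 12 h replicate 6 kept 84 of the 100 genes, the fewest of the 36 choices with a library left out, and 79 genes were kept in all 36. Without the 2 libraries in which the constant genes were highest on average, 91 were kept.

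As a ruler, the constant genes were summarised as the mean of their log2 levels in each library. Relative to library totals this mean deviated by -0.050 in imidacloprid 12 h replicate 6, the lowest library, and by 0.077 in imidacloprid 36 h replicate 6, the highest, with an SD of 0.0338 over the 36 libraries. It was -0.0013 ± 0.0357 in controls and 0.0013 ± 0.0327 in exposed animals (SD, n = 18 each). The rule chose genes that vary little over these same libraries relative to totals. Close treatment means therefore largely follow from the choice and support nothing. Summed, the constant genes took up 1.421 ± 0.0405% of counts in controls and 1.414 ± 0.0326% in exposed animals. In the 2 highest libraries, imidacloprid 36 h replicate 6 and control 48 h replicate 6, the 100 most abundant genes held 20.74% and 22.49% of counts, the lowest shares of the 36 libraries, whose median was 27.76%. The part of this in the level of the constant genes was not tested.

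That the ruler stays near the library totals follows from the rule, which measured constancy against totals. TMM, which centres each library on the bulk of its genes, moved more, with an SD of 0.0775 on the log2 scale. The ruler and TMM differed by an SD of 0.0548. The largest gap was 0.150 in imidacloprid 48 h replicate 5, where the constant genes stood at -0.018 and TMM at -0.168. By treatment the gap was 0.0034 ± 0.0491 in controls and -0.0034 ± 0.0613 in exposed libraries (SD, n = 18 each). The 100 genes chosen by the same rule on TMM-scaled CPM gave a ruler closer to TMM, with an SD of the difference of 0.0356 and a largest gap of 0.0832. That choice kept 48 of the 100 constant genes, and 8 of the first 10. Ranked by SD under TMM, the 100 constant genes had a median rank of 105, with 67 in the first 200 and the last at 749.

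**Figure D5:**
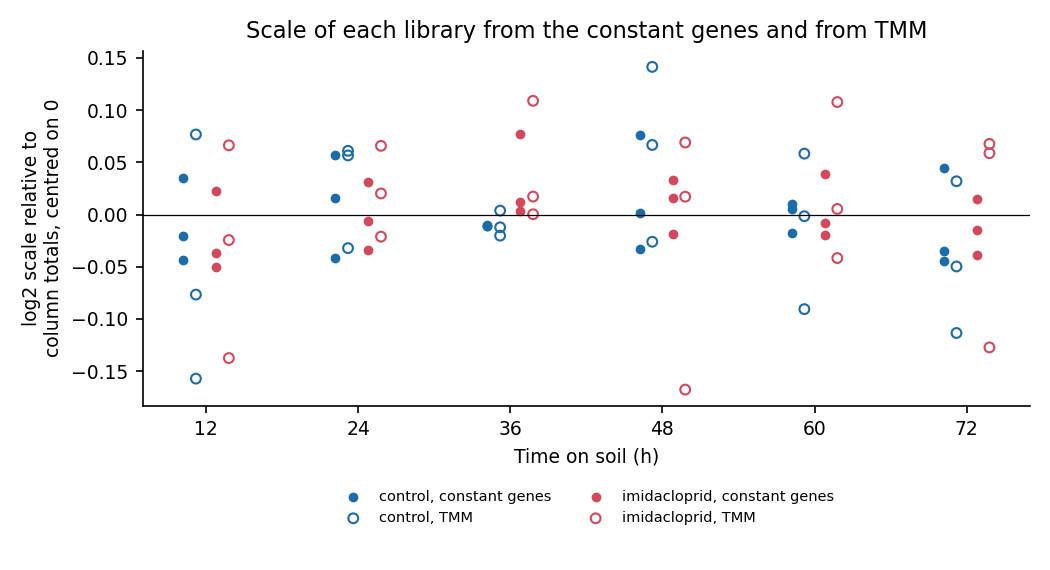
Scale of each library on the log2 scale relative to its total and centred on 0 (vertical) against hours on soil (horizontal), filled points from the mean of the 100 constant genes and open points from TMM, coloured by treatment. The filled points stay between -0.050 and 0.077, and the open points spread further, down to -0.168 in an exposed library at 48 h.

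Rulers of fewer genes were compared with that of all 100. The mean of the first 25 constant genes differed from that of the 100 by at most 0.0282 on the log2 scale in any library, that of the first 10 by at most 0.0847, that of the first 5 by at most 0.1004 and that of the first 3 by at most 0.0992. Apart from the ruler of 25 genes, these gaps exceeded the largest deviation of the 100-gene ruler from library totals, 0.077. Fcan01_12097 alone differed by up to 0.190, with a median difference of 0.0467. Among the 45 pairs of the first 10 genes, the log2 ratio of Fcan01_12097 to Fcan01_13326 had the lowest SD over libraries, 0.0796, or 1.057-fold. The median over the 45 pairs was 0.122 and over the 4950 pairs of the 100 genes 0.158. A ratio needs no scale, so this spread does not depend on library totals, although the genes in it were chosen with them.

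The ruler was then applied to genes outside the list, of which 2 that rose over all time points are given by identifier. Against the mean of the constant genes, Fcan01_17957 stood at log2 levels of -1.693, -1.61 and -1.379 in the controls at 48 h and at 0.069, 1.329 and 1.592 in the exposed libraries. At 72 h it stood at -0.879, -0.739 and -0.398 in controls and at 1.616, 1.736 and 1.761 after exposure. The groups did not overlap at either time. At 12 h the controls, from -1.834 to -1.198, and the exposed libraries, from -1.781 to -1.205, covered the same range. Its edgeR log2 fold change at 48 h was 2.81 with TMM and 2.71 with the constant genes as the scale, with edgeR adjusted p-values of 0.000201 and 7.55e-05. In all edgeR fits that scale was the sum of the counts of the constant genes, not the mean of their log2 levels. The sum and the mean differed by at most 0.0321 on the log2 scale in any library.

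Fcan01_10767 was at -6.727, -6.556 and -6.525 in the controls at 60 h and at -4.31, -4.192 and -3.09 in the exposed libraries, again without overlap. Its level was low, at 0.549, 0.700 and 0.730 CPM in these controls and 5.322, 5.571 and 12.64 CPM after exposure. The control levels on the ruler thus lay near the floor set by the added 0.5, which draws them together and narrows the difference between treatments. Its edgeR log2 fold change at 60 h was 3.54 with TMM and 3.57 with the constant genes, with edgeR adjusted p-values of 0.000526 and 0.000142. Both changes were larger than the extreme of the constant genes at the same times, which was 0.29 at 48 h and 0.25 at 60 h. The choice of the constant genes kept that extreme small. Of the 7628 genes 51.219% lay beyond it at 48 h and 24.567% at 60 h, so lying beyond it supports nothing.

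Over all genes tested the change of scale from TMM to the summed constant genes altered few calls of treatment. Of 60 genes called over all time points with TMM, all 60 were called with the constant genes as the scale, and Fcan01_17131 was added, with an edgeR adjusted p of 0.0374 in place of 0.0795. The 7 genes called at 48 h were the same, and Fcan01_01431 was added to the 4 at 60 h and to the 5 at 72 h, with edgeR adjusted p-values of 0.0249 and 0.0323. These genes were named after their values were seen. The median log2 fold change of all genes at 48 h moved from 0.113 to 0.032. Calls of time changed more. In controls 250 genes became 251, of which 231 were shared, and in exposed animals 207 became 323, of which 198 were shared. For the change of the treatment difference with time the summed constant genes gave 1 call, Fcan01_17957, with an edgeR adjusted p of 0.0243 in place of 0.0770 with TMM.

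The list also depended on how constancy was measured. Ranking by coefficient of variation kept 93 of the 100 genes, DESeq2's size factors kept 74 and the range over libraries kept 71. Taking the SD relative to the trend of SD on level kept 20. A minimum of 5 CPM kept 97, and a pseudocount of 5 kept 89. A minimum of 50 CPM kept 94, which follows from the rule, since 6 constant genes had a mean between 20 and 50 CPM.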

How the data were processed

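Per the labels' protocols, reads were trimmed with Trim Galore, a wrapper of Cutadapt (version given as 0.6.7), and assigned to the transcriptome with Salmon 1.4.0, and the authors normalized with DESeq2 1.28.1. What the authors deposited are estimated counts for each gene model, not normalized and all whole numbers. The release of the transcriptome was not given in those sources. Reads that match near-identical gene copies are shared out by Salmon's model, which leaves their counts uncertain.

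CPM, SDs and ranks were computed from these counts with Python 3.11.15. Tests used edgeR 4.0.16 in R 4.3.3 (filterByExpr, TMM, robust quasi-likelihood fit with 12 group means). DESeq2 1.42.0, limma-voom (limma 3.58.1), other scales, other measures of constancy and leaving out each library were alternatives. The code was tested on simulated data.

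Members, lists and the genes shown on the ruler were chosen with earlier results of these data known. Named are the 10 lowest SDs, the 3 highest and 3 lowest levels, the 5 largest fold changes, the 5 widest and 5 narrowest ranges of group means, the genes called and the 3 on each side of the limit. Of the 6 genes called by DESeq2 over time in controls the rule names 5, and all 6 are given. Lists fixed by product name were not used, since identifiers carry no names, and 2 of the 4 genes planned for the ruler are shown. The number 4 occurs in the titles of 2 exposed libraries at 72 h, which were counted as 2 replicates. For 8 pairs of libraries with equal numbers in control and exposed groups at a time, deviations from the group means were correlated. The values were 0.40 at 60 h, 0.45 at 72 h and not above 0.1 in 6 pairs. Control 72 h replicate 4 is in 2 of the 8, at -0.13 with library 71 and 0.45 with library 72. Pairs with unequal numbers ran from -0.51 to 0.56, both at 60 h. Numbers were therefore not used as pairs. Alternatives added after seeing the data were the replicate number as a term in edgeR, leaving out the 2 libraries of highest constant-gene level, rulers of fewer genes or of genes chosen under TMM, and a run without irregular titles. That run left out imidacloprid 12 h replicate 5 and 60 h replicate 1 and summed the libraries that share the number 4.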

Additional observations from a re-analysis of the deposited data

How the results depend on the processing

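Constant genes were called under DESeq2 alone, 1 over all time points, 6 over time in controls and 2 over time in exposed animals. DESeq2 called 0.668%, 8.58% and 5.84% of all genes there. The constant genes were chosen by low spread in the same libraries, so these counts do not show stability. The sign of their median log2 fold change depended on the scale over all time points and at 36, 48 and 60 h. Genes called over all time points numbered 60, with 131 by DESeq2, 31 with the replicate block as a term in edgeR, and 42 to 73 with a library left out.

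Genes called over time in controls numbered 250. There were 1682 by DESeq2, 113 by limma-voom, 113 by limma-voom with the replicate block, 39 with the block in edgeR, 377 without irregular titles, and 72 (without control 12 h replicate 3) to 334 (without imidacloprid 48 h replicate 3) with a library left out. In exposed animals 207 were called, with 1145 by DESeq2, 323 with the constant genes as the scale, 7 with the replicate block in edgeR and 76 without irregular titles. There were 126 without the 2 libraries of highest constant-gene level, and 101 (without imidacloprid 24 h replicate 2) to 382 (without imidacloprid 48 h replicate 5) with a library left out. Left-out libraries that moved the control count by over 1.5 times were, besides 12 h replicate 3, controls at 12 h replicate 6 (120), 60 h replicate 2 (158) and 72 h replicates 3 (81) and 4 (109). For the exposed count they were, besides those named, imidacloprid at 24 h replicates 3 (126) and 6 (133), 36 h replicate 1 (136), 60 h replicate 3 (131), and 72 h replicate 1 (101), library 71 (124) and library 72 (109). The cause was not tested. A fixed block within time points could not be fitted, since 36 h shares no number.

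Of the 100 constant genes, 48 were kept under TMM, 20 with the SD relative to its trend on level, 56 on exposed libraries alone and 50 on the libraries of 24, 48 and 72 h alone. Counting made up as much as 23.2% of the variance in Fcan01_12097, the gene of lowest SD, and 20.5% in Fcan01_13214, the gene of lowest mean CPM.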
